A study of Homo sapiens with 4 samples.

Results

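The genes described here are 8 transcription factor genes that are active when pluripotent cells enter the primitive streak and form mesendoderm, leaving out the T-box family: MIXL1, GSC, MESP1, MESP2, LHX1, OTX2, EVX1 and FOXA2. They are 8 of the 20033 protein-coding genes on the chromosomes, and they were chosen by name. The cells were H1 human embryonic stem cells (hESCs), an established pluripotent line, kept in mTeSR1 medium and given BMP4 at 50 ng/ml for 6 h. GATA3 was recovered by chromatin immunoprecipitation (ChIP) and the DNA sequenced in 2 replicates, each with an input chromatin sample from cells treated in the same way, which makes 4 samples in all. No untreated GATA3 ChIP sample was analysed here, so the data show where GATA3 lay after BMP4 and not what BMP4 changed. For each gene, a peak position was counted if it lay no more than 100 kb from the 5′ end of that gene (GENCODE release 44, hg38), in the gene body, or carried the gene's symbol in the deposited file. A region was called shared where positions of both replicates were within 100 bp of each other.

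Mesendoderm is the precursor population of mesoderm and definitive endoderm, and it arises in the primitive streak under BMP, WNT and Nodal signals. The genes encode DNA-binding proteins that act in that step: MIXL1, GSC and OTX2 carry paired-type homeodomains, LHX1 a LIM homeodomain, EVX1 an even-skipped homeodomain, MESP1 and MESP2 a basic helix-loop-helix and FOXA2 a forkhead domain. OTX2 is also expressed in pluripotent cells and in the anterior neural plate. GATA3 is a zinc finger protein that binds short sequences around the letters GATA.

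The rule found 19 positions in replicate 1 and 14 in replicate 2, of 18456 and 12782 on the chromosomes. These formed 9 of the 9145 shared regions of the series. The ratio of positions between the replicates was 1.36 at these genes and 1.44 over the whole lists. Of the member positions, 47.4% in replicate 1 and 64.3% in replicate 2 were shared, against 49.6% and 71.5% over the whole lists. The files give 1 position per peak with no height, width or q-value, so the strength of binding and the read depth could not be compared.

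The sequences below are the 200 bp windows (hg38, plus strand) around the centres of 6 of the 9 shared regions, and the window at OTX2 30.7 kb upstream, with 0 GATA sites, is among those not printed. Capitals mark GATA sites, the letters GATA with an A or T before them and an A or G after them, on either strand. Windows within 10 kb of the 5′ end of MIXL1, EVX1 and FOXA2 are shown first. Of the 4 member regions this close, 1 held such a site, against 4 of the 5 farther away. Over all shared regions the shares were 76.4% within 10 kb of a protein-coding 5′ end and 83.1% farther away. The region shared by MESP1 and MESP2 holds a site and counts as farther away, but lay 6.08 kb from the canonical start of MESP2.

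MIXL1 (chr1:226220901-226221100): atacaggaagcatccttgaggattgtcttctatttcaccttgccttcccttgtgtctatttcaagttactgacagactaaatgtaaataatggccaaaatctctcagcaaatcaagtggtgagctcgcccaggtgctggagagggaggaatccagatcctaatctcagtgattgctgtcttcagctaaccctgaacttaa

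EVX1 (chr7:27239575-27239774): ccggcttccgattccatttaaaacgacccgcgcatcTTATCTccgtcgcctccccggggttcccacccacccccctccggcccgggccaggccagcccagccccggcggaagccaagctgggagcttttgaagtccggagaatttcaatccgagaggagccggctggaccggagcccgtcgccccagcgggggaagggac

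FOXA2 (chr20:22579361-22579560): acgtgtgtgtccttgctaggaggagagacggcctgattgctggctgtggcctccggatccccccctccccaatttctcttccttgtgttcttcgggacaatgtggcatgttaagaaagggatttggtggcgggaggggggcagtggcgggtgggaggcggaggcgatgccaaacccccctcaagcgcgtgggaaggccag

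The next 3 windows lie farther from the gene named, and each of them holds 1 GATA site.

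MIXL1 (chr1:226210547-226210746): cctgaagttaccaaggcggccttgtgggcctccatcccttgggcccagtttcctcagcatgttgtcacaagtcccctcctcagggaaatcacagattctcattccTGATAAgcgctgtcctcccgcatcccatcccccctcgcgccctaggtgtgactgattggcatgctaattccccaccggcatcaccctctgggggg

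OTX2 (chr14:56886585-56886784): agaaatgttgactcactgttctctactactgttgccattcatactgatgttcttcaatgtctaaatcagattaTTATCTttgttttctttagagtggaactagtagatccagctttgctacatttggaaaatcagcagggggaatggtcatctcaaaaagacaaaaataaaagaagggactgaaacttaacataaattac

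OTX2 (chr14:56897844-56898043): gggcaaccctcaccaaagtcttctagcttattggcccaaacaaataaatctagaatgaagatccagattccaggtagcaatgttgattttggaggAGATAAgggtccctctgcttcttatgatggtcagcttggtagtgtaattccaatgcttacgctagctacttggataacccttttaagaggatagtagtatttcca

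Of the 8 genes, 7 had at least 1 shared region and GSC had 0. Over all protein-coding genes the share with a shared region in the same window was 47.5%. Replicate 1 alone had a position at 7 of the 8 genes, where 68.5% of protein-coding genes had one, and replicate 2 alone at the same number, where 57.2% had one. A shared region within 10 kb of the 5′ end or in the gene body was present for 4 members, MIXL1, LHX1, EVX1 and FOXA2, against 19% of protein-coding genes. These counts describe 8 named genes, of which 2 share their region, and no test was made of them.

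**Figure D1:**
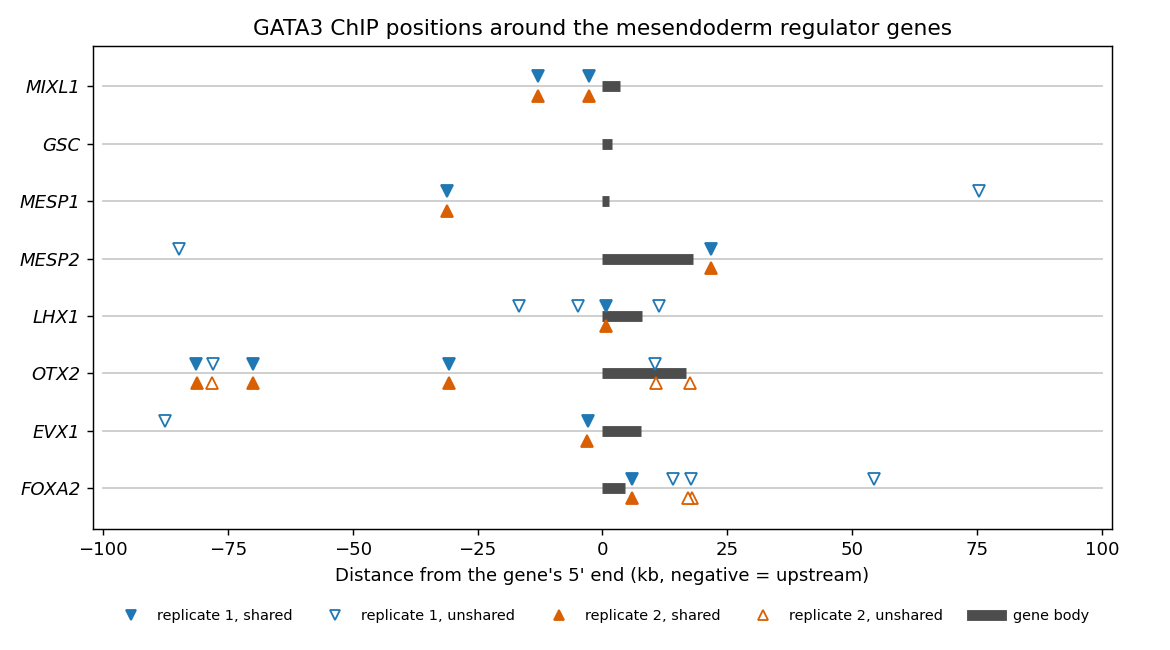
GATA3 ChIP positions of replicate 1 (downward triangles) and replicate 2 (upward triangles) around each gene, plotted by distance from the 5′ end in kb with transcription running to the right; filled symbols are shared and open symbols unshared, and grey bars are gene bodies. GSC has 0 positions, OTX2 has 3 shared regions spread upstream, and the MESP1 and MESP2 rows show the same positions seen from 2 genes.

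Counts per gene ran from 0 to 3. OTX2 had 3 shared regions, MIXL1 had 2, and MESP1, MESP2, LHX1, EVX1 and FOXA2 had 1 each. Among protein-coding genes the median was 0, 30.4% had exactly 1, and 5.8% had 3 or more, as OTX2 did.

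**Figure D2:**
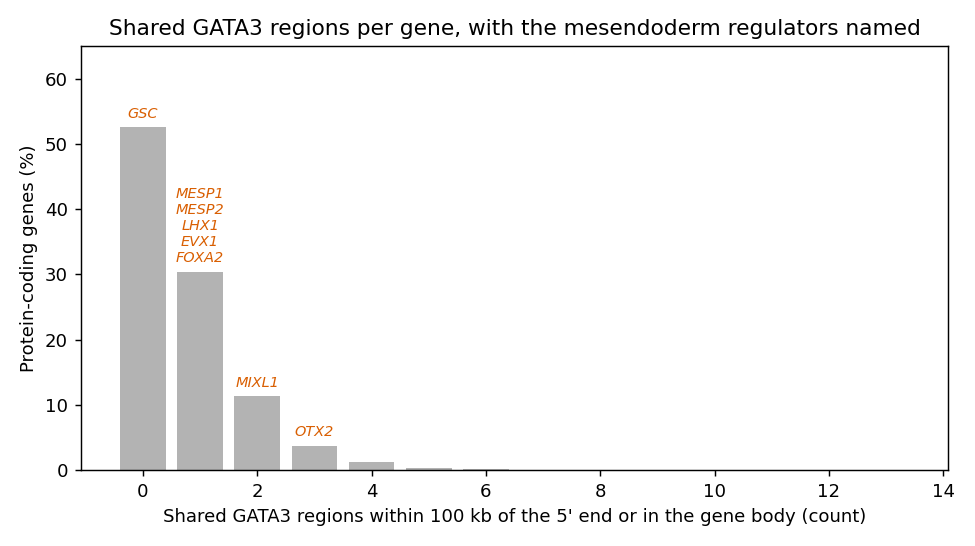
Share of 20033 protein-coding genes (y axis, %) by the number of shared GATA3 regions within 100 kb of the 5′ end or in the gene body (x axis), with the mesendoderm regulators named above the bar they fall in. Of the 8 genes, 5 fall in the bar at 1, and OTX2 is the only one at 3.

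The nearest shared region lay a median of 13.9 kb from the 5′ end over the 8 members and 118 kb over all protein-coding genes. The order from near to far was LHX1 (0.669 kb), MIXL1 (2.62 kb), EVX1 (3.03 kb), FOXA2 (5.99 kb), MESP2 (21.8 kb), OTX2 (30.7 kb), MESP1 (31.2 kb) and GSC (133 kb). MIXL1 and EVX1 differ by less than 1 kb in this order, as do OTX2 and MESP1. The MESP1 and MESP2 distances were measured to the same region, and no median without that region was computed. The members' median moved with the settings. From canonical transcript starts it was 5.59 kb, against 118 kb over all protein-coding genes. Among positions of replicate 1 alone it was 8.27 kb, against 60.4 kb, and of replicate 2 alone 8.39 kb, against 85.6 kb. With positions shared within 50 bp it was 26.5 kb, against 144 kb.

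**Figure D3:**
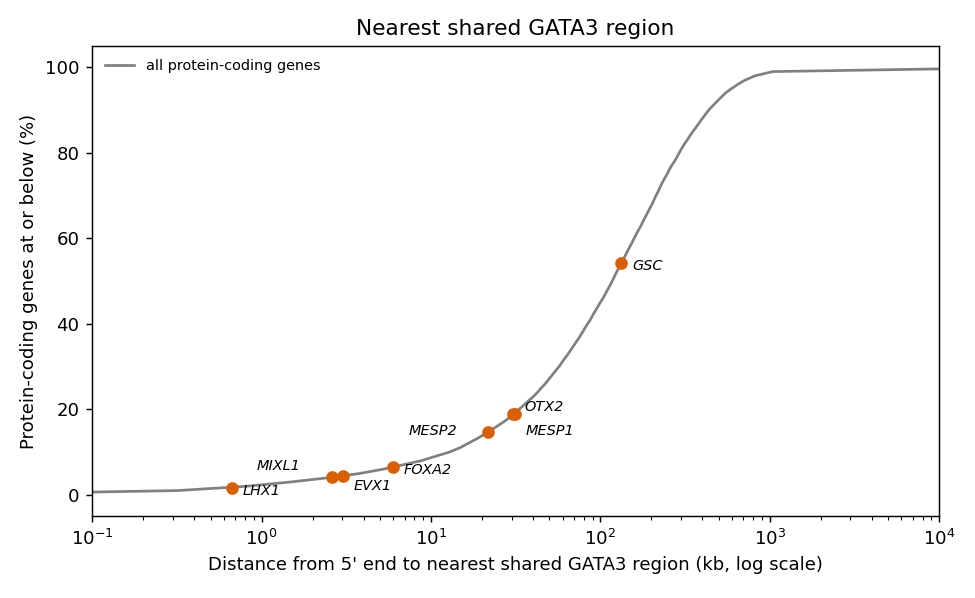
Cumulative share of protein-coding genes (y axis, %) by distance from the 5′ end to the nearest shared GATA3 region (x axis, kb, log scale), with the 8 mesendoderm regulators as points on the curve. LHX1, MIXL1, EVX1 and FOXA2 lie between 1.71% and 6.52% of genes, whereas GSC lies at 54.3%.

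MIXL1 encodes a homeodomain protein of the primitive streak and is a marker of mesendoderm in hESC differentiation. The gene spans chr1:226223618-226227060 on the plus strand. Both its regions lay upstream and outside any annotated gene, and both replicates gave a position at each, with no further position within 100 kb. The nearer region had positions 226220986 in replicate 1 and 226221014 in replicate 2, 28 bp apart and 2.62 kb upstream. The farther one had positions 226210632 and 226210661, 29 bp apart and 13.0 kb upstream. MIXL1 was the nearest protein-coding gene to both, and the authors' files name it at all 4 positions. The window at 13.0 kb held a TGATAA whose middle was 8 bp from the centre. The window at 2.62 kb held 0 GATA sites, the nearest being 154 bp from its centre.

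GSC encodes goosecoid, a homeodomain repressor of the organizer and anterior primitive streak. The gene lies on the minus strand at chr14:94768223-94770113. Neither replicate had a position within 100 kb. The nearest position of replicate 1 was 115 kb away and the nearest of replicate 2 was 133 kb away, on the other side of the gene and part of a shared region. GSC was the 1 member for which the replicates gave no shared region at any of the distances from 50 to 500 bp tried.

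OTX2 had more positions than any other member, 5 in replicate 1 and 6 in replicate 2. Its gene spans chr14:56799905-56816693 on the minus strand. The 3 shared regions lay 30.7, 70.0 and 81.3 kb upstream, all inside intron 1 of the canonical transcript of OTX2-AS1, a long noncoding RNA gene on the opposite strand. OTX2 was the nearest protein-coding gene to each, while the authors' files name a small nuclear RNA pseudogene, RNU6-1204P, at the first and the noncoding gene RP11-1085N6.5 at the others. At 30.7 kb the replicate positions were 56847326 and 56847417, which are 91 bp apart. At 70.0 kb they were 56886669 and 56886699, at a gap of 30 bp. At 81.3 kb they were 56897991 and 56897896, at a gap of 95 bp. The regions with gaps of 91 and 95 bp stood just inside the limit of 100 bp, so OTX2 would have 1 shared region at a limit of 50 bp. The windows at 70.0 and 81.3 kb each held an AGATAA, 23.5 and 2 bp from the centre, and the one at 30.7 kb held 0 GATA sites.

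Inside OTX2 both replicates had a position in intron 2 of the canonical transcript, at 56806149 and 56805916, but 233 bp apart and so not shared. RefSeq gives OTX2 an alternative transcript start at 56805667. The position of replicate 1 was 0.482 kb and that of replicate 2 0.249 kb upstream of it. The 284 bp spanning both positions with 25 bp on each side is shown because it holds 2 GATA sites, in capitals, between positions that the replicates placed differently. The position of replicate 1 was 38.5 bp from the nearer one and that of replicate 2 was 104 bp from a site.

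OTX2 intron 2 (chr14:56805891-56806174): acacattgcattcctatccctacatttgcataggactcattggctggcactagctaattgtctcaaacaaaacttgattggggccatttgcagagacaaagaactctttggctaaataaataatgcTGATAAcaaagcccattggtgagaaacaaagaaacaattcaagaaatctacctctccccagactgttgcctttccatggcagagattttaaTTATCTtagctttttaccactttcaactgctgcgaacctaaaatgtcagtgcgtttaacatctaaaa

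A further pair at OTX2 lay 266.5 bp apart, 77.9 kb upstream in replicate 1, and replicate 2 had a position at 56799103 just past the 3′ end of the gene, 7046 bp from the nearest of replicate 1. Positions counted as shared within 500 bp would give OTX2 5 shared regions.

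LHX1 encodes a LIM homeodomain factor of the organizer and anterior mesendoderm. Its gene spans chr17:36936785-36944612 on the plus strand. The shared region, with positions 36937434 and 36937473 at a gap of 39 bp, lay 0.669 kb inside the gene and 21.5 bp upstream of the canonical transcript, which starts at 36937475. It was the closest of the 9 regions to a 5′ end. Its window held 0 GATA sites, and no such site lay within 1 kb of the centre on either side, which was so for 1.14% of all shared regions. The files name LHX1 at both positions. Replicate 1 had 3 more positions that replicate 2 lacked. They were at 36920013 and 36931946, in an intron of the divergent noncoding gene LHX1-DT, 16.8 and 4.84 kb upstream of LHX1, and at 36948075, 0.850 kb from the 5′ end of AATF. With 4 positions against 1, LHX1 had the largest difference between the replicates among the members.

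EVX1, a homeodomain factor of the posterior primitive streak, spans chr7:27242700-27250493 on the plus strand beside the HOXA cluster. Its shared region had positions 27239714 and 27239635, 79 bp apart and 3.03 kb upstream. The centre fell in exon 2 of an antisense long noncoding RNA gene, ENSG00000253308, and the files give the name RP1-170O19.17. The region lay within 100 kb of the 5′ ends of 10 protein-coding genes, the most for any of the 9, but EVX1 was the nearest. The window was the richest of the 9 in G and C, at 68%, and held an AGATAA, read on the minus strand, 61 bp from the centre. The position of replicate 2 was 21.5 bp from that site and the position of replicate 1 was 100.5 bp from it. At a limit of 50 bp the region would not be shared. Replicate 1 had a further position in the cluster, at 27155103 in an exon of HOXA7, 48863 bp from the nearest of replicate 2.

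MESP1 and MESP2 encode basic helix-loop-helix factors of early mesoderm, MESP1 being a marker of cardiac progenitors and MESP2 a factor in somite segmentation. The genes are divergent neighbours, with 5′ ends 9.34 kb apart in this annotation. MESP1 spans chr15:89749875-89751249 on the minus strand and MESP2 chr15:89760591-89778754 on the plus strand. They share 1 region, with positions 89782414 and 89782402 at a gap of 12 bp, so it counts for both. It lay 31.2 kb upstream of MESP1 and 3.65 kb past the 3′ end of MESP2. From the canonical start of MESP2, 15.7 kb inside the annotated gene, the distance was 6.08 kb in place of 21.8 kb. The files name MESP2 at both positions. An unshared position of replicate 1, in intron 2 of PLIN1, was also within 100 kb of both genes.

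The MESP region differed from the other 8 in its sequence, which was not unique. By blastn, 2928 other places on the chromosomes of hg38 matched its window over at least 100 bases at 80% identity or more, the closest at 94.1% identity, whereas the other 8 windows had 0 such matches. Among the shared regions 31 others matched it in the same way. All 31 held a GATA site and 26 of them a TGATAA, as the MESP window does 39.5 bp from its centre. Over all shared regions, 23.4% had at least 1 other region alike, and 9.91% had 31 or more. Reads that mapped to several places were taken out by the authors before peak calling, and how that step acted on this sequence was not tested. Without this region 5 of the 8 genes would have a shared region. The share of all protein-coding genes without regions repeated in this way was not computed.

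FOXA2 encodes a forkhead factor required in definitive endoderm and the node. Its gene spans chr20:22580998-22585455 on the minus strand. The shared region had positions 22579467 and 22579454.5, 12.5 bp apart, 5.99 kb downstream of the 5′ end and 1.54 kb past the 3′ end. It lay 0.819 kb upstream of the 5′ end of LINC00261, a long noncoding RNA gene next to FOXA2 on the same strand, and LINC00261 is the name in the files. FOXA2 was still the nearest protein-coding gene. The window was 62% G and C and held 0 GATA sites, the nearest being 130 bp from the centre. Within LINC00261 the replicates had positions 22567686.5 and 22567489, which at 197.5 bp apart were not shared, and each had 1 more there, 22571357 in replicate 1 and 22568274 in replicate 2. A position of replicate 1 at 22531097 was 54.4 kb from the FOXA2 5′ end.

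**Figure D4:**
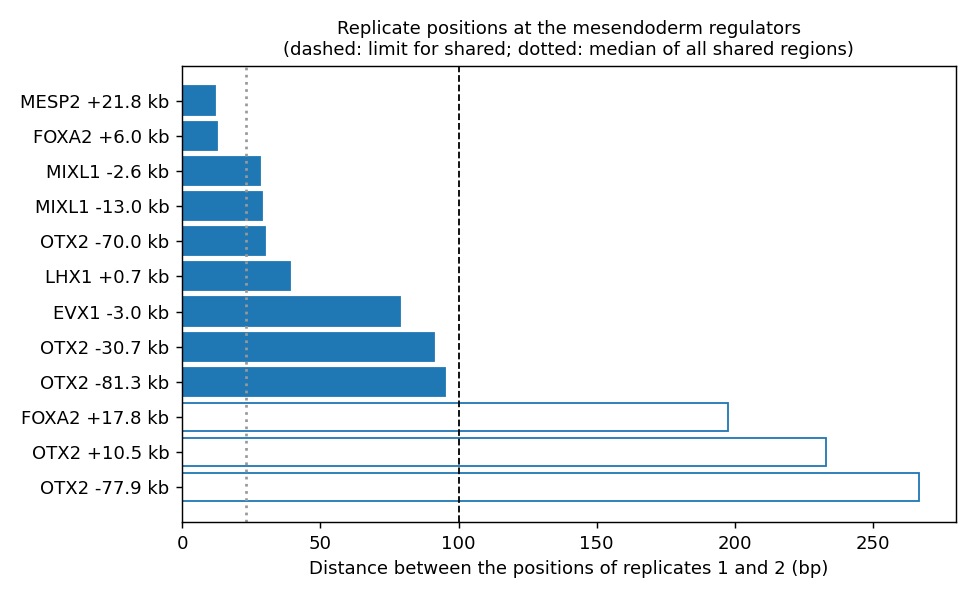
Distance in bp between the positions of replicates 1 and 2 at the 9 shared regions (filled bars) and the 3 pairs between 100 and 300 bp apart (open bars), named by gene and distance from its 5′ end; the dashed line is the limit of 100 bp and the dotted line the median of all shared regions, 23 bp. Bars for EVX1 and for OTX2 at 30.7 and 81.3 kb reach 79 to 95 bp, and the next pair is at 197.5 bp.

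The replicate positions of the 9 regions were a median of 30 bp apart, and 23 bp over all shared regions. Gaps of at most 50 bp were found at 6 of the 9, against 80.9% of all shared regions. Measured from the annotated 5′ end of the nearest member, 6 of the 9 regions were upstream and 3 downstream. The MESP region counts as downstream of MESP2 here, but it lay upstream of MESP1. The LHX1 region counts as downstream, but it lay upstream of the canonical start. The upstream share of all shared regions was not computed. All 9 had a member as the nearest protein-coding gene, but the authors' names gave a member at 4. Regions within 10 kb of a protein-coding 5′ end made up 17.1% of all shared regions, and 4 of the 9 here. The rule takes positions near the named genes, and no share over all regions limited in that way was computed.

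GATA sites were not used by the rule. Of the 9 windows, 5 held a GATA site, each exactly 1, against 82% of all shared regions, of which 34.6% held 2 or more. The stricter AGATAA was in 3 of 9, against 51.6%. With the core letters GATA alone, 6 of 9 windows had a match, against 92.6%. A GATA site within 50 bp of the centre was present in 4 of 9, against 72.3%. Among the 4 regions within 10 kb of a member's 5′ end, 1 held a site, where 76.4% of all shared regions that close to a protein-coding 5′ end did. Among the 5 farther away 4 held one, against 83.1%. The MESP region, with a site, is among these 5, but it lay 6.08 kb from the canonical start of MESP2.

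GC content differed among the members. The windows ranged from 34% at OTX2 70.0 kb upstream to 68% at EVX1, with a median of 48% against 44% over all shared regions. At least 59% G and C was found in 4 windows, at MIXL1 13.0 kb upstream, EVX1, LHX1 and FOXA2, whereas 4.61% of all shared regions reached it. This bound was chosen from the member values. Of these 4 windows 2 held a GATA site, and 52.1% of all shared regions as rich in G and C did. Of the 5 windows below 59%, 3 held a site, against 83.4%. These shares describe 9 loci and were not tested.

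**Figure D5:**
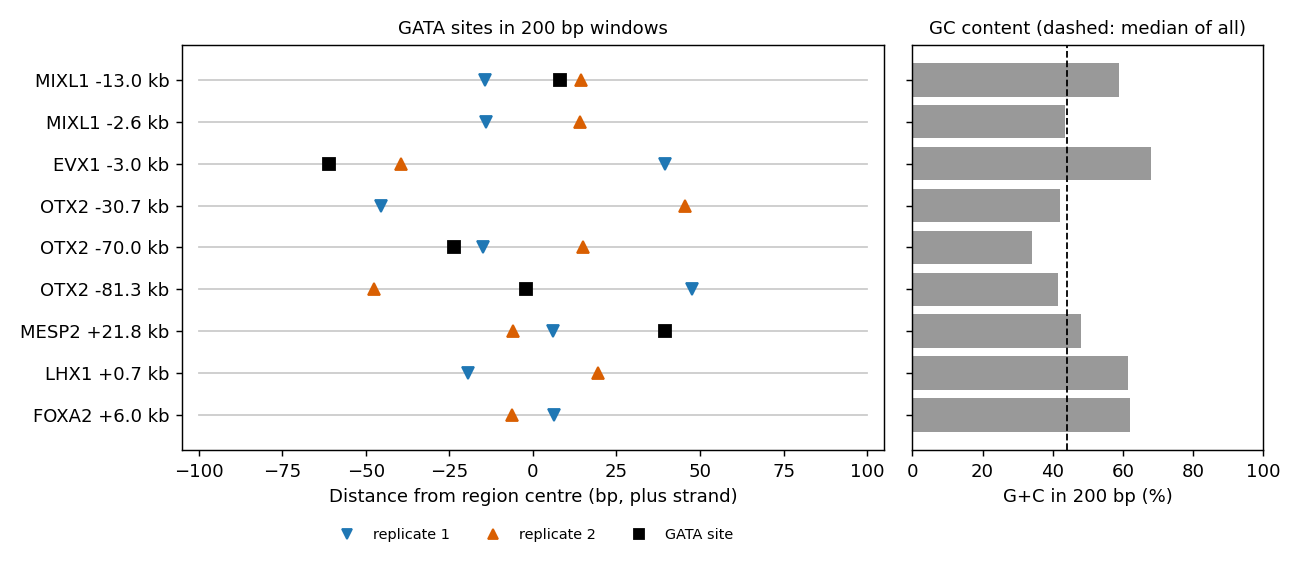
Left, the 200 bp windows of the 9 shared regions, with replicate positions (triangles) and GATA sites (squares) by distance from the centre in bp on the plus strand. Right, G and C content of each window in %, with the median of all shared regions (44%) dashed. A square is present in 5 rows, and the bars of EVX1, FOXA2, LHX1 and the farther MIXL1 region reach at least 59%.

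The unshared positions of these genes held GATA sites at 5 of 10 in replicate 1, where 72.9% of all unshared positions did, and at 4 of 5 in replicate 2, where 67% did.

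Recognition sequences of other proteins were sought in the same windows on both strands. The forkhead letters AATNNACA, bound by FOXH1, the Nodal pathway cofactor, were in 3 of 9 windows, at MIXL1 2.62 kb upstream, OTX2 81.3 kb upstream and LHX1, against 14.5% of all shared regions. The T-box element TCACACCT was in 1, at MIXL1 13.0 kb upstream, against 0.864%. The SMAD letters GTCTG were in 1, at MIXL1 2.62 kb upstream, against 36.1%. The other motifs had 0 matches in the 9 windows. They were the POU octamer ATGCAAAT (5.1% of all shared regions), the SOX letters ACAAAGG or ACAATGG (13.3%), the SMAD1/5 element GGCGCC (1.96%), TAATCC, bound by GSC and OTX2 (8.43%), and the forkhead letters TGTTTAC or TGTTTGC, bound by FOXA2 (7.84%).

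RefSeq promoters, from 250 bases before to 50 after a transcript start, were available here for MIXL1, GSC, MESP2, EVX1 and OTX2, the last with 2 starts. A GATA site was in 1 of the 6, the alternative OTX2 promoter, at chr14:56805777-56805782. That site lay between the transcript start and the position of replicate 2, and outside the 284 bp shown above.

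Related genes were counted in the same way. Of 7 paralogs of the members, 6 had a shared region within 100 kb or in the gene body, and GSC2 had 0. The share of all protein-coding genes was 47.5%. Within 10 kb or in the gene body 2 paralogs had a shared region, against 19% of all protein-coding genes. These 2 were LHX5, with the nearest at -3.16 kb, and OTX1, at -6.07 kb, relative to the 5′ end. Among 20 other genes of the primitive streak and mesendoderm, 9 (45.0%) had a shared region, against 47.5% of all protein-coding genes, and their median distance was 127 kb. A region within reach of neighbouring genes counts for each of them. LEFTY1 and LEFTY2 had 2 shared regions each, and whether these were the same regions was not checked. Within 10 kb or the gene body 5 of the 20 had a shared region, where 19% of all protein-coding genes did. They were NODAL, the ligand of the Nodal pathway, LEFTY2, an inhibitor of Nodal, and WNT3, a WNT ligand of the streak. The others were GATA6, an endoderm GATA factor, and SP5, a WNT target. Of the T-box genes in that list TBXT and TBX6 had 0 shared regions and EOMES had 2.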

How the data were processed

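GATA3 ChIP-seq of 2 replicates was analysed; the 2 input samples entered through the authors' peak calling. According to the study's methods and the submitters' processing notes, reads were trimmed with cutadapt, aligned to hg38 with Bowtie, cleared of duplicates with Picard and of multiply mapped and blacklisted reads, after which MACS2 compared each ChIP sample with its input, 1 replicate at a time. The authors deposited single positions, each written as both start and end, with a gene name and no score. The numbers of positions differ from the peak counts that the study reports. Of the positions on chromosomes, 1.56% in replicate 1 and 2.12% in replicate 2 end in 0.5, as deposited, and fall between bases. How a position was derived, and whether bases count from 0 or 1, is not given in the sources used here. The count from 0 or 1 alone leaves 1 bp of uncertainty, and the offset of a position from the centre of binding is not known.

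Positions were linked across replicates within 100 bp, and the centre is the mean. Genes were taken from GENCODE release 44, sequence from hg38, and promoters and alternative starts from RefSeq (GRCh38.p14 table), RefSeq gene starts being held for all 8 genes and promoters for 5. In all, 9 motifs and the subset AGATAA were searched in 200 bp. The window sequences at LHX1 and MESP2 are not reported here, and that at OTX2 30.7 kb upstream is not printed. Tools were Python 3.11.15, numpy 2.4.6, pysam 0.24.0, samtools 1.23.1 and blastn 2.17.0. The functions were tested on simulated data. Named are the 8 members with all their regions, and list genes with a region within 10 kb or in the gene body. GSC2, TBXT, TBX6, EOMES and LEFTY1 were added after values were seen. The members and lists were chosen with earlier results of these data known. With 1 group of ChIP samples no comparison was tested; background shares over all genes or regions stand beside counts.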

Additional observations from a re-analysis of the deposited data

How the results depend on the processing

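Limits. The files used hold no scores, so a stricter peak threshold could not be tried, and depth could not be read from them. No paired analysis was possible because the input samples have no file analysed here and no test compares groups. The core letters GATA and the count without the repeated MESP region were chosen after seeing the data.

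With windows of 10 kb, 4 genes had 4 shared regions, with 6 positions in replicate 1 and 5 in replicate 2, and 25% of the regions held a GATA site. With 50 kb, 7 genes had a shared region, against 32.3% of protein-coding genes, and 42.9% of the regions held a GATA site. With 200 kb there were 16 regions, 29 and 22 positions, and 68.8% held a site, and all 8 genes had a region, as 68.3% of protein-coding genes did. By the authors' gene names alone, 3 genes had a shared region. In 100 bp windows 44.4% of the 9 regions held a GATA site, against 71.2% of all shared regions. In 400 bp windows 77.8% of the 9 held one, against 88.4% of all shared regions. In 200 bp 33.3% held AGATAA, against 51.6%. Using 1 replicate at a time, regions ran from 14 to 19, the share with a site from 47.4% to 64.3% and the median distance from 8.27 to 8.39 kb. The median distance was 26.5 kb with positions shared within 50 bp, against 144 kb over all protein-coding genes. It was 8.33 kb within 250 or 500 bp, against 108 and 106 kb. From canonical transcript starts it was 5.59 kb, against 118 kb. From RefSeq starts it was 6.05 kb, and no value over all genes was computed for these starts. The count of genes with a region was 6 within 50 bp, where EVX1 was lost, and 7 within 250 and 500 bp. In either replicate alone it was 7, where 68.5% of protein-coding genes had a position in replicate 1 and 57.2% in replicate 2. Shares of all protein-coding genes at the limits of 50, 250 and 500 bp, or by the authors' gene names, were not computed.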

Other observations

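Counts in the wider surroundings of the members differed, and no such count was made over all protein-coding genes. Within 1 Mb on each side of the 5′ end, OTX2 had 10 shared regions and 6 other protein-coding genes, whereas MESP1 and MESP2 had 5 shared regions and 33 other protein-coding genes. MIXL1 had 9 shared regions, FOXA2 had 7, EVX1 had 6, and GSC and LHX1 had 5 each. GSC, with 0 positions within 100 kb, therefore had as many shared regions within 1 Mb as LHX1, the member with the closest region.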
